A study of Mus musculus with 12 samples.

Results

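The net change in gene expression between the second and the fourteenth day of life was measured in Ly6G+ cells of mouse spleen by setting the 3 libraries from mice aged 14 days against the 3 from mice aged 2 days, over all genes. These were 6 of the 12 libraries in the series, whose other 6 came from mice aged 7 days and 6 weeks. Libraries were made from polyadenylated RNA, and at all ages the sorted cells carry the label PMN-MDSC, that is, polymorphonuclear myeloid-derived suppressor cells. No genotype, strain, treatment, sex or number of mice per library was given for any age, and since separate animals were not stated behind replicates of an age, the spread that the p-values rest on may be technical. Of 38887 genes in the deposited count table, 15494 had enough counts to be tested.

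Ly6G is a surface protein of mouse neutrophils, short-lived white cells that leave the bone marrow, and around birth also the liver and spleen, after a series of steps in which granule proteins are made in a fixed order: primary granule enzymes such as myeloperoxidase come earliest, secondary granule proteins such as lactoferrin follow, and gelatinase granule proteins and migration receptors come last. Cells called PMN-MDSC carry the same surface markers but dampen T cell responses, through arginine-consuming enzymes, reactive oxygen species, prostaglandin E2 and surface ligands such as PD-L1. The first weeks of life are known as a time when such cells are abundant and then decline.

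The interval was marked by the following changes. Il1b and Ptgs2, the class II genes H2-Aa, H2-Ab1 and H2-Eb1, and most markers of monocytes and dendritic cells and most cell cycle genes were higher at 14 days. Of 30 NF-kB components and targets, 13 were higher and 5 lower (43.3% and 16.7%, against 12.8% and 12.3% of all tested genes). Mast cell proteases, red cell, connective tissue and fetal genes, the stefin A gene cluster, Olfm4, Thbs1, Arg1 and Nos2 were lower. Interferon-stimulated genes moved in both directions, with most members not called. S100a8 and S100a9, abundant calcium-binding proteins of neutrophils, did not pass the test.

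Each library held between 34495767 and 38795913 counts. Ly6g, the gene of the sorted marker, was present in every library of both ages, at 74.9, 112 and 94.4 CPM (its count scaled to the normalized size of the library) in replicates 1, 2 and 3 at 2 days and at 189.5, 159 and 156 CPM at 14 days (log2 fold change 0.85 with SE 0.15, adjusted p = 0.0012, edgeR). The sex make-up of the libraries differed with age: the Y-linked genes Ddx3y, Eif2s3y and Uty had 3615, 4445 and 442 counts over the 3 libraries of 2 days and 0 at 14 days, so sex and age cannot be told apart in any comparison here. Genes on the X chromosome were called about as often (24.8% of 500) as those on autosomes (25.2% of 14785). These shares do not measure the part of sex in the calls, which was not tested. Among the libraries of an age, replicate 2 of 2 days and replicate 1 of 14 days stood apart. The former had a summed level of 37959 CPM over the mature neutrophil genes against 21267 and 26558 in its partners, and less of the mast cell, erythroid and cell cycle genes. The latter had a summed level of 9422 CPM over the NF-kB and inflammatory genes against 5216 and 5362, and less of the erythroid, macrophage and B cell genes. In bulk libraries such as these, fewer cells of a type and less RNA per cell cannot be told apart.

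At an adjusted p under 0.05 (edgeR's quasi-likelihood test with Benjamini-Hochberg adjustment), 3882 genes were called, 25.1% of those tested. Of these, 1978 (12.8% of tested genes) were higher and 1904 (12.3%) were lower at 14 days, and the median log2 fold change of all tested genes was -0.03. In 5173 genes (33.4%) the 3 libraries of one age all lay above the 3 of the other. Large falls outnumbered large rises: 394 genes fell and 146 rose by more than 8-fold, against 1043 falls and 1082 rises by more than 2-fold. Leaving out replicate 2 of 2 days raised the count to 5833 (3047 higher, 2786 lower), while leaving out replicate 3 of 2 days lowered the genes called lower to 1236. A fit of the 6 libraries alone called 1952.

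**Figure D1:**
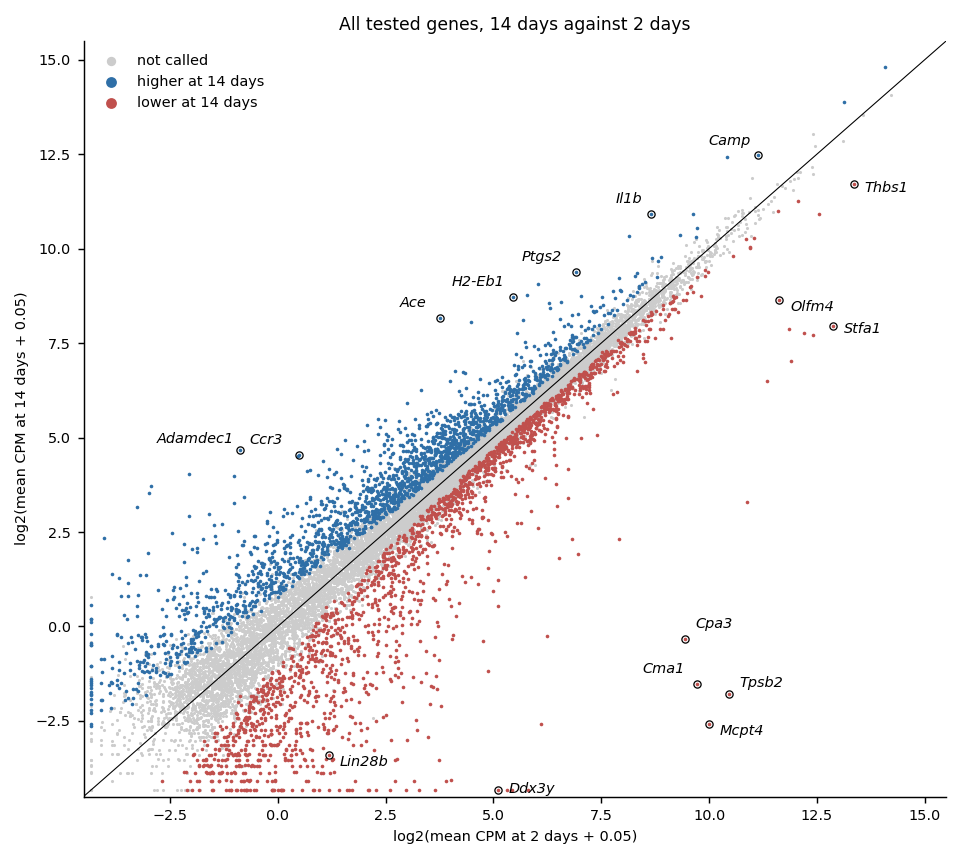
Each point is 1 of the 15494 tested genes, with log2(mean CPM + 0.05) at 2 days on the x axis and at 14 days on the y axis, blue where called higher and red where called lower at 14 days. Mast cell proteases form the red group at the lower right, the stefin gene Stfa1 and Thbs1 lie below the diagonal among abundant genes, and Ace, Il1b, Ptgs2 and H2-Eb1 lie above it.

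At 7 days, 930 of the 1978 genes called higher (47%) and 829 of the 1904 called lower (43.5%) had a mean between those of 2 and 14 days, as did 3459 of all tested genes (22.3%). A further 653 of the genes called higher and 499 of those called lower had their greatest mean at 7 days, and 395 and 576 had their least there. By these means the net change was often not a steady course. The 7-day libraries differed in heat-shock genes: the summed level of 18 such genes was 35043 to 40176 CPM at 7 days. It was 1913 to 2952 CPM at 2 days and 1656 to 1777 CPM at 14 days. The part of this difference in the other values of 7 days was not tested.

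**Figure D2:**
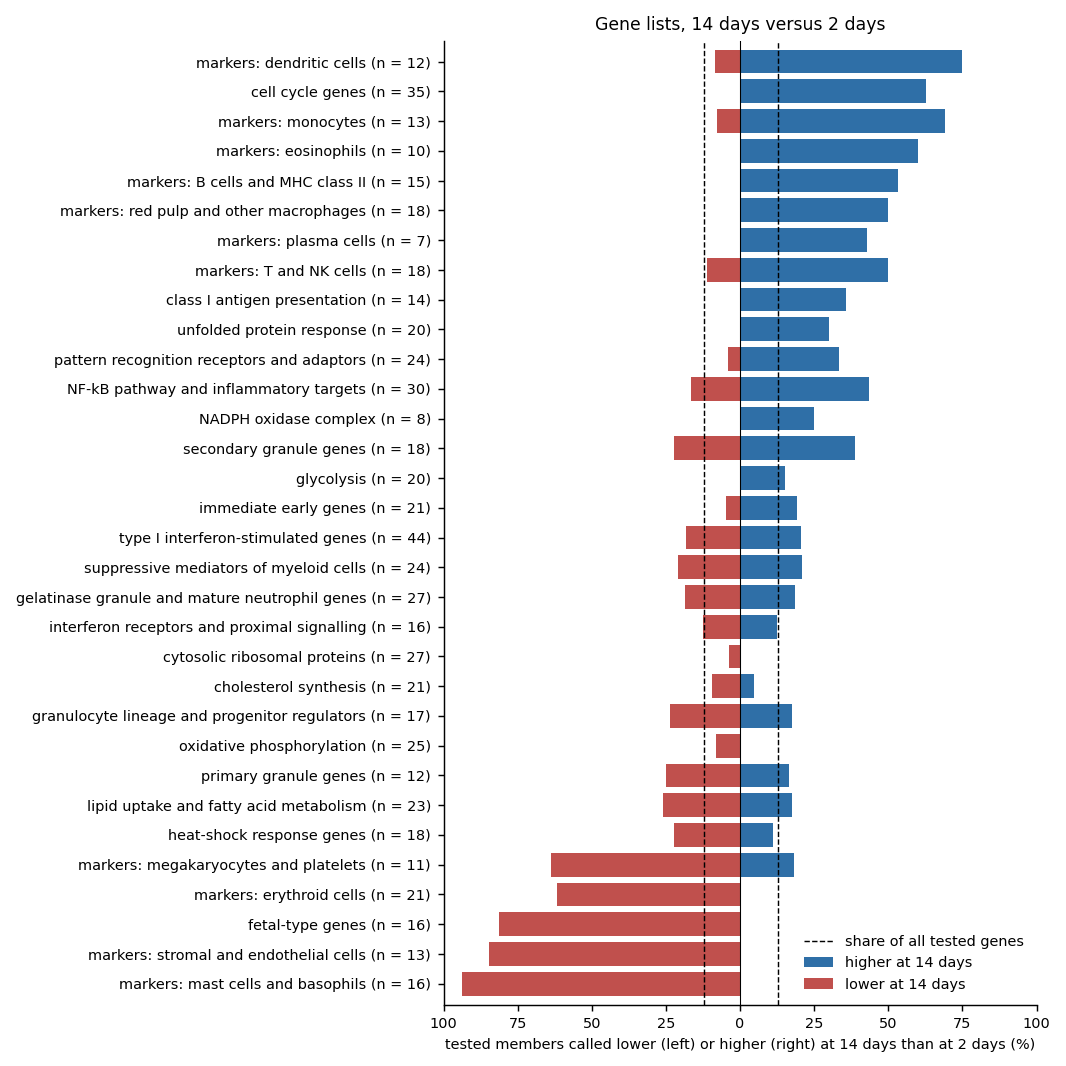
Bars give, for each gene list, the percentage of tested members called higher (blue, right) or lower (red, left) at 14 days, with the number tested beside the name and dashed lines at the shares of all tested genes (12.8% higher, 12.3% lower). Mast cell, stromal, fetal-type and erythroid genes lie at the bottom with falls and no rises, and dendritic cell, cell cycle, monocyte, eosinophil and class II genes lie at the top.

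Both the fit of the 6 libraries alone and the test against 1.5-fold called fewer genes than the fit reported here, over all genes and in most lists. Counts from the 6 libraries alone that were smaller by more than 1.5 times included 4 sensors of microbial products, 4 secondary granule genes, 2 mature neutrophil genes and 5 macrophage markers called higher. They also included, among members called lower, 2 secondary granule genes, 4 platelet and 6 stromal markers. The cell cycle count was 16 from the 6 libraries and 13 against 1.5-fold, and mast cell markers stayed at 15 and 15.

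Suppressive mediators known from myeloid cells numbered 24 among the tested genes. At 14 days 5 of them were higher and 5 lower (20.8% each, against 12.8% and 12.3% of all tested genes), with a median log2 fold change of -0.12. The falls included Arg1 and Nos2, whose enzymes consume arginine. Arg1, arginase 1, was at 2.32, 4.58 and 2.71 CPM at 2 days and at 0.379, 0.163 and 0.108 CPM at 14 days (log2 fold change -3.88 with SE 0.55, adjusted p = 0.000297), with a log2 fold change of -4.52 when replicate 1 of 14 days was left out. Nos2, which makes nitric oxide from arginine once induced, was at 3.73, 3.29 and 5.23 CPM at 2 days and 0.35, 0.109 and 0.297 CPM at 14 days (log2 fold change -4.01 with SE 0.66, adjusted p = 0.000822). Both genes were scarce at either age, and their libraries did not overlap. Arg2, the mitochondrial arginase, did not pass the test, with a mean of 69.2 ± 40.2 CPM (SD, n = 3) at 2 days and 53.5 ± 16.1 CPM at 14 days (log2 fold change -0.37, adjusted p = 0.495).

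Thbs1, thrombospondin 1, an adhesive glycoprotein that can activate latent TGF-beta, was the most abundant of the falling mediators. Its level was 11085, 9088 and 11109.8 CPM at 2 days and 3889, 3145 and 2948 CPM at 14 days, a 3.13-fold difference of means without overlap (log2 fold change -1.65 with SE 0.21, adjusted p = 0.000124). At 6 weeks it was at 45.1, 60.3 and 67.6 CPM. Platelets and megakaryocytes also make Thbs1, and the summed level of their markers was 103, 131 and 97.2 CPM at 2 days and 124, 112 and 114 CPM at 14 days. Their part in the fall of Thbs1 was not tested. Nt5e, the CD73 ectoenzyme that makes adenosine (log2 fold change -0.98 with SE 0.21, adjusted p = 0.0049), fell as well. Il4ra, the interleukin 4 receptor chain, fell from 463 ± 65.4 to 232 ± 25.2 CPM (adjusted p = 0.00293).

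Ligands that engage the inhibitory receptor PD-1 rose. Cd274, which encodes PD-L1, was at 17.3, 14.5 and 19.6 CPM at 2 days and 49.3, 38.9 and 34.7 CPM at 14 days (log2 fold change 1.26 with SE 0.15, adjusted p = 9.25e-05). Pdcd1lg2, which encodes PD-L2, had a log2 fold change of 1.64 (SE 0.27, adjusted p = 0.000915). Markers of monocytes and dendritic cells also rose, as given below, and the part of these cells in the rises of Cd274 and Pdcd1lg2 was not tested. Olr1, the receptor for oxidized lipoprotein known as LOX-1 and used as a marker of human PMN-MDSC, rose from 7.91 ± 0.611 to 29.4 ± 2.38 CPM (log2 fold change 1.89 with SE 0.15, adjusted p = 4.66e-06). Il10 (adjusted p = 0.906), Tgfb1 (0.135), S100a8 (0.937) and S100a9 (0.666) did not pass the test. The number of mediators called higher was 8 without replicate 2 of 2 days, and Tgfb1 was then among them (log2 fold change 0.52, adjusted p = 0.00508).

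**Figure D3:**
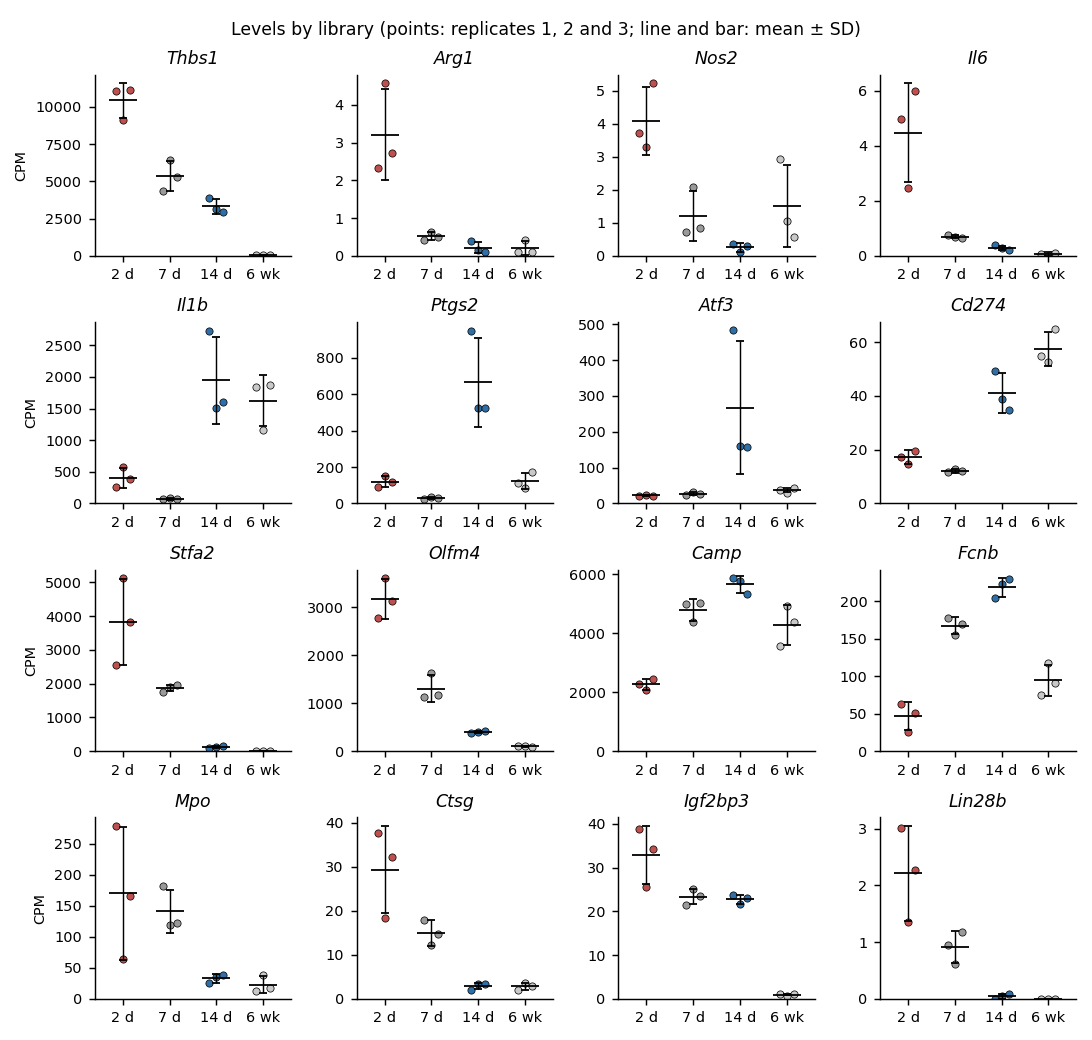
Levels in CPM (y axis, from 0) of 16 genes in every library at 2 days, 7 days, 14 days and 6 weeks (x axis), with points for replicates and the line and bar for mean ± SD (n = 3). Thbs1, Arg1, Nos2, Il6, Stfa2, Olfm4, Mpo, Ctsg and Lin28b were lower and Il1b, Ptgs2, Atf3, Cd274, Camp and Fcnb higher at 14 than at 2 days. Replicate 1 of 14 days is the highest point at that age for Il1b, Ptgs2 and Atf3.

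Ptgs2 and Il1b were among the abundant rises. Ptgs2, the inducible cyclooxygenase that starts prostaglandin synthesis (chr1:150100031-150108227, GRCm38), was at 92.1, 149 and 118 CPM at 2 days and 949, 524 and 523 CPM at 14 days (log2 fold change 2.47 with SE 0.32, adjusted p = 0.000141). Il1b, which encodes the cytokine interleukin 1 beta (chr2:129364570-129371139), was at 259.9, 577 and 379 CPM at 2 days and 2732, 1502 and 1599 CPM at 14 days (log2 fold change 2.26 with SE 0.32, adjusted p = 0.000314). In both genes every library of 14 days exceeded every library of 2 days, and replicate 1 was the highest at 14 days. Both were lower at 7 days than at either age, at 23.2, 37.4 and 31.2 CPM for Ptgs2 and 64.4, 92.3 and 72.1 CPM for Il1b. Without replicate 1 of 14 days the log2 fold changes were 2.13 for Ptgs2 and 1.94 for Il1b. Monocytes make both genes, and monocyte markers also rose, as given below. Their part in these rises was not tested.

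NF-kB is a family of transcription factors held inactive by IkB proteins until a receptor signals. Of 30 tested genes on the list of NF-kB components and targets, 13 were higher and 5 lower (median log2 fold change 0.58). These were 43.3% and 16.7% of the list, against 12.8% and 12.3% of all tested genes. Family members of the noncanonical branch rose, Relb from 21.7 ± 1.01 to 42.6 ± 2.41 CPM (log2 fold change 0.97 with SE 0.12, adjusted p = 8.04e-05) and Nfkb2 from 57 ± 4.86 to 89.4 ± 3.68 CPM (log2 fold change 0.65 with SE 0.10, adjusted p = 0.000499). Rises were not confined to that branch. Rel, the c-Rel subunit, had a log2 fold change of 0.86 (adjusted p = 0.00146). The kinase gene Ikbkb had 0.57 (adjusted p = 0.000692) and the IkB gene Nfkbia 0.60 (adjusted p = 0.0458). Feedback inhibitors rose as well: Nfkbie, an IkB protein, had a log2 fold change of 1.02 (adjusted p = 3.72e-05) and Tnfaip3, the deubiquitinase A20, had 1.43 (adjusted p = 0.00548). Traf1, an adaptor of TNF receptors, changed most among the rises, from 2.17, 1.45 and 1.94 CPM to 11.5, 19.8 and 16.6 CPM (log2 fold change 3.10 with SE 0.30, adjusted p = 1.83e-05). Rela, the p65 subunit, fell slightly, from 196 ± 12.2 to 156 ± 19.1 CPM (log2 fold change -0.33, adjusted p = 0.0462). Its call and that of Ikbkg, a kinase subunit (-0.35, adjusted p = 0.0343), were lost when replicate 2 or 3 of 14 days or replicate 3 of 2 days was left out.

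The cytokine targets did not move together. Il6, which encodes interleukin 6, fell from 4.96, 2.47 and 5.97 CPM to 0.379, 0.272 and 0.216 CPM (log2 fold change -3.94 with SE 0.47, adjusted p = 8.93e-05), and Bcl3, an atypical IkB protein, fell from 144 ± 26.6 to 59.9 ± 6.23 CPM (log2 fold change -1.27 with SE 0.21, adjusted p = 0.000907). Cxcl3, a ligand of the neutrophil receptor CXCR2, also fell (log2 fold change -1.31, adjusted p = 0.00862), and this call was lost without replicate 3 of 2 days (adjusted p = 0.0504). Tnf, which encodes tumour necrosis factor, was at 66, 42.2 and 57.1 CPM at 2 days and 91.5, 43.8 and 47.3 CPM at 14 days, and the groups overlapped (log2 fold change 0.14, SE 0.25, adjusted p = 0.723). Its difference lay on the other side of 0 when replicate 1 of 14 days was left out (-0.27, adjusted p = 0.3). The genes called lower in this list numbered 3 without replicate 2 and 3 without replicate 3 of 14 days, and 2 without replicate 3 of 2 days. The 6 libraries alone gave 9 higher and 3 lower, and the test against 1.5-fold gave 8 and 2. The list's summed level was 3352, 4218 and 3803 CPM at 2 days, 1649, 1880.3 and 1689 CPM at 7 days and 9422, 5216 and 5362 CPM at 14 days.

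Atf3, Ccrl2 and Hcar2, named among the largest rises, were highest in replicate 1 of 14 days. Atf3, a stress-induced transcription factor, was at 20, 24.5 and 22.2 CPM at 2 days and 482, 161 and 159 CPM at 14 days (log2 fold change 3.59 with SE 0.39, adjusted p = 3.72e-05, or a log2 fold change of 2.85 without replicate 1 of 14 days). Ccrl2, an atypical chemerin receptor, was at 43.4, 64.5 and 46.6 CPM at 2 days and 513, 153 and 169 CPM at 14 days (log2 fold change 2.43 with SE 0.39, adjusted p = 0.00068). Hcar2, the niacin and ketone body receptor, was at 64.4, 84.7 and 86.1 CPM at 2 days and 761, 182 and 181 CPM at 14 days (log2 fold change 2.26 with SE 0.45, adjusted p = 0.00315). In each of the 3 genes the groups did not overlap. Without replicate 1 of 14 days, the log2 fold change was 1.65 for Ccrl2 and 1.22 for Hcar2.

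Cells switch on immediate early genes within minutes of a stimulus or of handling. Of 21 tested, 4 were higher (Atf3, Nr4a1, Nr4a3 and Dusp2) and 1 was lower (Ier3), a share near that of all tested genes (25.1%), with a median log2 fold change of -0.01. Nr4a3, an orphan nuclear receptor, had a log2 fold change of 2.99 (adjusted p = 0.00327), and 1.92 without replicate 1 of 14 days. Fos, the best known of them, was at 3209.5, 5606 and 3036 CPM at 2 days and 2725, 2879.8 and 3318 CPM at 14 days (adjusted p = 0.22). Genes called lower numbered 2 without replicate 2 of 2 days.

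Type I interferon acts through the receptor chains Ifnar1 and Ifnar2, the kinases Jak1 and Tyk2, and a transcription factor complex that binds interferon-stimulated response elements near its target genes. To show what such elements look like in genes that moved in opposite directions, the 250 bases before the RefSeq start (GRCm38.p6) are printed for the 5 interferon-stimulated genes with the smallest p among those holding the core on either strand (GAAA, any 2 bases, GAAA). They are Oas1g (chr5:120887614-120887863, minus strand, matches starting 18 and 12 bases before the start), Gbp3 (chr3:142559794-142560043, plus strand, 45 and 39 bases), Bst2 (chr8:71537473-71537722, minus strand, 130 and 124 bases), Slfn5 (chr11:82951852-82952101, plus strand, 155 bases) and Gbp2 (chr3:142620413-142620662, plus strand, 59 bases). Sequences run 5′ to 3′ on the gene's strand, and capitals mark the matches (read as TTTC, any 2 bases, TTTC where the core lies on the other strand), joined where matches overlap.
Oas1g: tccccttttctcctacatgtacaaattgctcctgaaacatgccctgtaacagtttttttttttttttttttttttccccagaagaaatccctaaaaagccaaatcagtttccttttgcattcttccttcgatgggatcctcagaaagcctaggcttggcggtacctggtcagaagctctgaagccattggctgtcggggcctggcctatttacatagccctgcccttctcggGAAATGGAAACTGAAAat
Gbp3: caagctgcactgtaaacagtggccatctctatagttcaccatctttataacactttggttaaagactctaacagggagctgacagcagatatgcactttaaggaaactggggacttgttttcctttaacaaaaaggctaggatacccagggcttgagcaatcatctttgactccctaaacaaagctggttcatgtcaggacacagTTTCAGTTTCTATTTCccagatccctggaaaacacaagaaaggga
Bst2: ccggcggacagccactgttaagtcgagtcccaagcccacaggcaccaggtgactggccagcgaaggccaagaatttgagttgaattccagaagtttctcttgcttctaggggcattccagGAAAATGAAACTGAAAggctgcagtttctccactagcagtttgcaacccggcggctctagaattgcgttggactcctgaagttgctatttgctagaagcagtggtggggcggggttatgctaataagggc
Slfn5: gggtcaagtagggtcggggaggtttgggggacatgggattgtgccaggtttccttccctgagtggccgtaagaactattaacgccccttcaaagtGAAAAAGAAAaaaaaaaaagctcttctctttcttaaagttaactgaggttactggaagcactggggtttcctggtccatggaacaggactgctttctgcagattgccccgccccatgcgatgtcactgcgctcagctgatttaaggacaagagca
Gbp2: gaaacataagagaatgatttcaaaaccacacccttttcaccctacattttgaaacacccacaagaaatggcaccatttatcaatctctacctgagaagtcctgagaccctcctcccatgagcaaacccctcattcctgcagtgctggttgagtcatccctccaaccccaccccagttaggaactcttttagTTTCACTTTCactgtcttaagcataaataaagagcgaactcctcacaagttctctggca
A promoter was in the RefSeq table for 33 of the 44 interferon-stimulated genes, and 18 of these (54.5%) held the core. Over all genes it was found in 936 of 27025 (3.46%), and in 978 of 32851 windows of the same length (2.98%). A match describes the letters and not a bound site.

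Of the 5 genes, Oas1g, Bst2 and Slfn5 were lower and Gbp3 and Gbp2 higher at 14 days, so the core stood before genes of both directions. Oas1g, an oligoadenylate synthetase that senses viral RNA, was at 9.02, 10.5 and 7.4 CPM at 2 days and 3.76, 4.24 and 1.78 CPM at 14 days (log2 fold change -1.46 with SE 0.25, adjusted p = 0.00112). Bst2, tetherin, which holds budding virus at the cell surface, was at 23, 17.5 and 24.8 CPM and 12.7, 14.6 and 14.2 CPM (log2 fold change -0.65 with SE 0.15, adjusted p = 0.00581). Slfn5, a schlafen family gene, fell from 57.8 ± 18.4 to 33.1 ± 5.36 CPM (log2 fold change -0.80 with SE 0.24, adjusted p = 0.0269). Gbp3, a guanylate-binding GTPase, was at 2.2, 2.27 and 2.36 CPM and 3.33, 7.13 and 5.34 CPM (log2 fold change 1.21 with SE 0.23, adjusted p = 0.00239). Gbp2, its relative, rose from 11.4 ± 6.73 to 21.9 ± 2.99 CPM (log2 fold change 0.95 with SE 0.30, adjusted p = 0.0373). The call of Slfn5 was lost without replicate 2 or 3 of either age, and that of Gbp2 without any single library other than replicate 2 of 2 days.

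Over the list of 44 interferon-stimulated genes, 9 were higher, 8 lower and 27 not called (median log2 fold change -0.22). The shares higher and lower were 20.5% and 18.2%, against 12.8% and 12.3% of all tested genes. Irf7, the transcription factor that amplifies type I interferon production, was at 102, 154 and 117 CPM at 2 days, 37.1, 43 and 34 CPM at 7 days and 117, 99.4 and 103 CPM at 14 days. Its groups overlapped between 2 and 14 days (log2 fold change -0.23 with SE 0.16, adjusted p = 0.33). Isg15, a ubiquitin-like modifier, likewise did not pass the test (log2 fold change 0.23, adjusted p = 0.592). Ifit1, which binds foreign RNA, was at 9.88, 21.9 and 20.2 CPM at 2 days and 12.5, 7.4 and 8.55 CPM at 14 days (log2 fold change -0.87, adjusted p = 0.0537), and passed when replicate 1 of 2 days (-1.12, adjusted p = 0.00727) or replicate 1 of 14 days (-1.12, adjusted p = 0.0284) was left out. Mx2, a dynamin-like antiviral GTPase, rose (log2 fold change 1.36, adjusted p = 0.0102), except without replicate 2 of 14 days (adjusted p = 0.0504). Members called lower numbered 19 without replicate 1 of 2 days, 4 without replicate 3 of 14 days, 4 without replicate 3 of 2 days, and 5 without replicate 2 of 14 days or, likewise, of 2 days. Members called higher numbered 5 without replicate 2 of 14 days. The 6 libraries alone gave 2 higher and 5 lower, and the test against 1.5-fold gave 1 and 1.

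Of 16 genes for receptors and proximal signalling of the interferon and interleukin 10 pathways, 2 were higher and 2 lower, near the share of all tested genes (12.8% and 12.3%), with a median log2 fold change of 0.03. Neither the 6 libraries alone nor the test against 1.5-fold called any of them. Ifnar2 was at 114, 131 and 142 CPM at 2 days and 99.7, 87.3 and 87.8 CPM at 14 days, without overlap (log2 fold change -0.49 with SE 0.11, adjusted p = 0.0055). Ifnar1 (adjusted p = 0.174) and the inhibitor Socs3 (adjusted p = 0.835) did not pass. Stat3, the transcription factor of interleukin 6 and G-CSF signalling, fell from 486 ± 61.8 to 365 ± 20.8 CPM (log2 fold change -0.41, adjusted p = 0.0359), a call lost without replicate 2 or 3 of 14 days or replicate 3 of 2 days. Genes called higher in this list numbered 7 without replicate 2 of 2 days, and genes called lower numbered 1 without any of the same 3 libraries.

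Antigen presentation by class I molecules rose in part. Of 14 tested genes, 5 were higher and none was lower (median log2 fold change 0.29). The share higher was 35.7%, against 12.8% of all tested genes. The rises were the classical heavy chain H2-K1 (log2 fold change 0.64 with SE 0.13, adjusted p = 0.00353), the nonclassical H2-Q4, H2-Q6 and H2-Q7, and Nlrc5, the transactivator of class I genes (log2 fold change 1.15 with SE 0.21, adjusted p = 0.00163). H2-Q7 was at 8.1, 2.4 and 4.9 CPM at 2 days and 26.6, 51.3 and 38.2 CPM at 14 days, although the division of reads among these near-identical genes is uncertain. The light chain B2m did not pass (adjusted p = 0.0712), and without replicate 2 of 2 days 10 genes did, B2m among them.

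Sensors of microbial products rose more often than they fell, in 8 against 1 of 24 (median log2 fold change 0.33). The shares were 33.3% and 4.17%, against 12.8% and 12.3% of all tested genes. Nlrc4, an inflammasome protein that responds to bacterial flagellin, had a log2 fold change of 1.74 (SE 0.24, adjusted p = 0.000234). Nod1, which detects a peptidoglycan fragment, had 1.47 (SE 0.20, adjusted p = 0.000214), and Tlr9, which detects unmethylated CpG DNA, had 1.23 (SE 0.23, adjusted p = 0.00193). Tmem173, which encodes the DNA-sensing adaptor STING, fell (log2 fold change -0.70, adjusted p = 0.00128). Counts higher in this list ranged from 5 (without replicate 1 of either age) to 13 (without replicate 2 of 2 days), and counts lower were 2 without replicate 1 of 14 days and 4 without replicate 1 of 2 days.

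Granule genes did not move as a block. The list of 12 primary granule genes held 2 that rose and 3 that fell (median log2 fold change -0.31), and 1 that rose without replicate 1 or 3 of 14 days or replicate 3 of 2 days. The 2 and 3 were 16.7% and 25% of the list, against 12.8% and 12.3% of all tested genes. Mpo, myeloperoxidase, was at 279, 64.4 and 167 CPM at 2 days and 25.2, 35.3 and 39 CPM at 14 days (log2 fold change -2.36 with SE 0.49, adjusted p = 0.00392), and Ctsg, cathepsin G, was at 37.6, 18.3 and 32.1 CPM and 2.07, 3.35 and 3.26 CPM (log2 fold change -3.34 with SE 0.31, adjusted p = 1.21e-05). In both genes replicate 2 was the lowest library of 2 days and still above every library of 14 days. Elane, neutrophil elastase, was at 26.4, 6.68 and 15.3 CPM and 6.62, 12.8 and 12.3 CPM and did not pass (log2 fold change -0.61 with SE 0.47, adjusted p = 0.375). Prtn3, proteinase 3, did not pass either (log2 fold change -1.15, adjusted p = 0.0524), but did without replicate 2 of 2 days (-1.50, adjusted p = 0.00317). Mast cells also make serine proteases of this family, and their markers fell between the same ages, as given below. The part of mast cells in these falls was not tested. At 7 days the summed level of the primary granule list was 11602, 12519 and 12050.5 CPM, against 4846, 8828 and 5537 CPM at 2 days and 9851, 8894 and 8964 CPM at 14 days.

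Secondary granule genes were split, with 7 of 18 higher and 4 lower (median log2 fold change 0.17). The shares were 38.9% and 22.2%, against 12.8% and 12.3% of all tested genes. Camp, the cathelicidin antimicrobial peptide, was at 2263, 2071 and 2454 CPM at 2 days and 5879, 5761 and 5317 CPM at 14 days (log2 fold change 1.32 with SE 0.16, adjusted p = 8.37e-05). Chil3, a chitinase-like protein, was at 1294, 1332 and 1478 CPM and 4828, 5960.4 and 5641 CPM (log2 fold change 2.00 with SE 0.17, adjusted p = 6.89e-06). Fcnb, ficolin B, a lectin of the complement system made by immature neutrophils, was at 62.7, 25.9 and 50.9 CPM and 204, 222 and 229 CPM (log2 fold change 2.23 with SE 0.26, adjusted p = 7.76e-05). All 3 genes were without overlap between the ages. Ltf, lactoferrin, was at 9912, 7907 and 9193 CPM and 17084, 13580.2 and 14481 CPM (log2 fold change 0.74 with SE 0.21, adjusted p = 0.0231). The calls of Ltf and of Ngp, neutrophilic granule protein (0.74, adjusted p = 0.0362), were each lost without replicate 1 or 3 of 14 days or replicate 3 of 2 days, and that of Ngp also without replicate 2 of 14 days. Members called higher numbered 4 without each of the 3 libraries that both genes depended on.

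Large falls among abundant genes, less deep than those of the mast cell proteases given below, were in the stefin A cluster of chromosome 16. It encodes small cytosolic inhibitors of cysteine proteases. Stfa1 (chr16:36276951-36285373) was at 5207, 9672 and 7637 CPM at 2 days and 210.3, 247 and 283 CPM at 14 days (log2 fold change -4.93 with SE 0.25, adjusted p = 1.45e-07). Stfa2 (chr16:36403992-36408457) was at 2542, 5116 and 3819.8 CPM and 106, 128 and 158 CPM (log2 fold change -4.87 with SE 0.28, adjusted p = 2.94e-07). Stfa3, BC100530 and Stfa2l1 had log2 fold changes of -4.84, -4.43 and -3.99. These are near-identical neighbours, so how reads were divided among them is uncertain, while each of the 5 fell and the libraries of 2 and 14 days lay far apart in Stfa1 and Stfa2. At 7 days Stfa1 was at 4219.8, 4209 and 4864 CPM, closer to 2 than to 14 days, and at 6 weeks it was at 20.7, 15.6 and 19.5 CPM. Olfm4, olfactomedin 4, which marks a subset of neutrophils, fell as well, from 2770.0, 3601 and 3131 CPM to 386, 395 and 416 CPM (log2 fold change -2.99 with SE 0.17, adjusted p = 2.94e-07).

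Genes of gelatinase granules and mature neutrophils were 5 higher and 5 lower of 27 (median log2 fold change -0.17). Each was 18.5% of the list, against 12.8% and 12.3% of all tested genes. Retnlg, a resistin-like protein of neutrophils, fell from 4159, 7793 and 6128 CPM to 2541, 1664 and 1624 CPM (log2 fold change -1.63 with SE 0.27, adjusted p = 0.000816), and Fpr1, the receptor for bacterial formyl peptides, fell from 321 ± 170.0 to 107 ± 2.14 CPM (log2 fold change -1.58 with SE 0.28, adjusted p = 0.00138). Cxcr4, the receptor that retains neutrophils in marrow, rose from 451 ± 190.5 to 819.5 ± 92.8 CPM (log2 fold change 0.86 with SE 0.24, adjusted p = 0.0206), a call lost without replicate 1 or 3 of 14 days or replicate 3 of 2 days. Mmp9, gelatinase B, was not called (adjusted p = 0.138), nor was Cxcr2, the chemokine receptor of mobilized neutrophils (log2 fold change -0.49, adjusted p = 0.251), except without replicate 1 of 2 days (-0.73, adjusted p = 0.0366). Csf3r, the G-CSF receptor, shows how far replicate 2 of 2 days stood from its partners, at 1152, 3439.9 and 1568 CPM at 2 days against 4892, 2985 and 3388 CPM at 14 days. The log2 fold change of Csf3r was 0.87 (adjusted p = 0.0898) with that library and 1.47 (adjusted p = 0.00112) without it. Without it, members called higher numbered 10, against 3 to 4 without any other single library. Members called lower numbered 3 without replicate 2 and 3 without replicate 3 of 14 days, and 9 without replicate 1 of 2 days.

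The phagocyte NADPH oxidase makes superoxide. Of its 8 genes, 2 rose: Cybb, the catalytic gp91phox subunit, from 782, 819.6 and 752 CPM to 2127, 1815 and 1806 CPM (log2 fold change 1.29 with SE 0.16, adjusted p = 0.000126), and Hvcn1, the proton channel that sustains its activity, from 72.3, 56.2 and 56.7 CPM to 160.5, 169 and 188 CPM (log2 fold change 1.48 with SE 0.14, adjusted p = 1.8e-05). The other genes of the list were not called, and the median log2 fold change was -0.01. The 2 rises were 25% of the list, against 12.8% of all tested genes.

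Transcription factors of the granulocyte lineage were largely not called: Cebpa (log2 fold change 0.21), Cebpe (0.03) and Spi1 (-0.11) had adjusted p of 0.496, 0.959 and 0.685. Cebpa and Cebpe passed as higher without replicate 2 of 2 days (0.57 and 0.70, adjusted p = 0.00282 and 0.00503). Of 17 lineage and progenitor genes, 3 rose and 4 fell (17.6% and 23.5%, against 12.8% and 12.3% of all tested genes), with a median log2 fold change of 0.03. The falls were Gata2 (log2 fold change -5.05 with SE 0.35, adjusted p = 1.31e-06), Cd34 (log2 fold change -4.60 with SE 0.40, adjusted p = 6.89e-06), Kit (log2 fold change -1.71 with SE 0.25, adjusted p = 0.000418) and Hoxa9 (log2 fold change -2.63 with SE 0.61, adjusted p = 0.0076, or -1.87 without replicate 1 of 2 days). Gata2 and Kit are also defining genes of mast cells, whose markers fell. The rises were Klf4, Flt3 and Irf8, and of these Klf4 also marks monocytes and Flt3 dendritic cells, whose lists held mostly rises. The part of either cell type in these calls was not tested. Counts higher were 5 without replicate 1 and 6 without replicate 2 of 2 days.

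Genes of mitosis were higher at 14 days. Of 35 cell cycle genes, 22 rose and none fell (median log2 fold change 0.87). Mki67, a nuclear protein of dividing cells, was at 193, 135 and 169 CPM at 2 days and 341, 322 and 321 CPM at 14 days, without overlap (log2 fold change 0.98 with SE 0.16, adjusted p = 0.000758), after 630.5, 636 and 690.1 CPM at 7 days. Ube2c, a ubiquitin-conjugating enzyme of mitotic exit, had a log2 fold change of 1.54 (adjusted p = 0.00037), Plk1, a mitotic kinase, 1.45 (0.00217), Ccnb2, cyclin B2, 1.43 (0.000775) and Top2a, topoisomerase II alpha, 1.16 (0.00165). Genes of DNA replication licensing behaved otherwise: Mcm2 to Mcm7 had log2 fold changes from -0.41 to 0.13, and none was called. Without replicate 2 of 2 days, 5 genes were called lower, Cdc6, Mcm2, Mcm3, Mcm4 and Mcm6 (for Mcm2, -0.73, adjusted p = 0.0248).

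**Figure D4:**
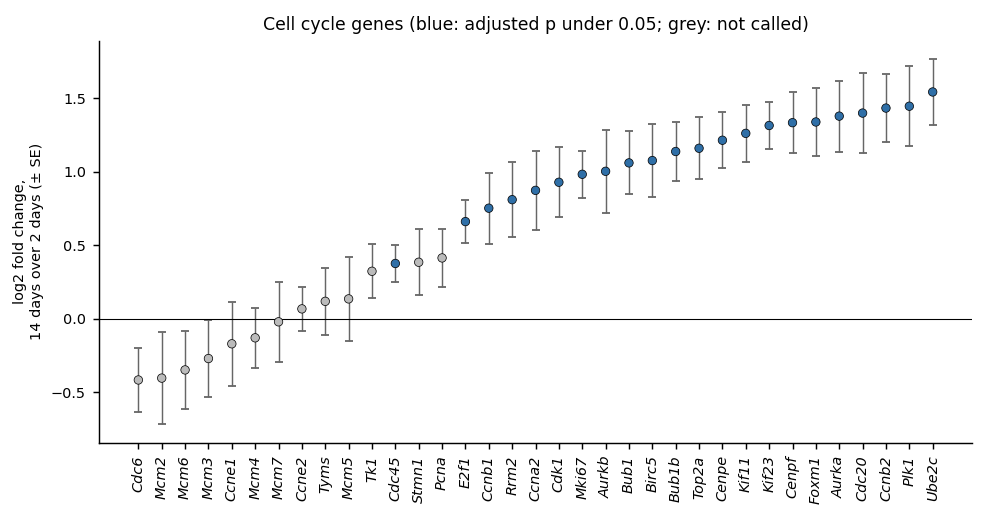
Log2 fold change from 2 to 14 days (y axis, ± SE) for each of the 35 cell cycle genes (x axis), in blue where called and grey where not. The mitotic genes Ube2c, Plk1 and Ccnb2 lie at the right, and the licensing genes of the Mcm family at the left around 0.

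Of 16 fetal-type genes, a list of imprinted growth genes and of regulators that are active before birth and silenced after it, 13 fell and none rose (median log2 fold change -2.92). Lin28b, which keeps fetal blood progenitors from adopting adult features, had 242 counts over the 3 libraries of 2 days and 5 at 14 days (3.01, 1.35 and 2.27 CPM and 0, 0.0544 and 0.0809 CPM, log2 fold change -5.49 with SE 0.64, adjusted p = 0.000169, or -6.14 without replicate 3 of 14 days). Igf2bp3, an RNA-binding protein of the same list, was at 38.7, 25.6 and 34.2 CPM and 23.7, 21.6 and 22.9 CPM (log2 fold change -0.53 with SE 0.15, adjusted p = 0.0229). At 6 weeks Igf2bp3 was far lower, at 0.928 ± 0.167 CPM. The call of Igf2bp3 was lost without replicate 1 or 3 of 2 days, without replicate 2 or 3 of 14 days, and with scaling by library totals. Igf2, a growth factor (-4.17), the noncoding H19 (-5.86, and -6.46 without replicate 3 of 14 days), Dlk1 (-5.16), Grb10 (-4.17) and Hmga2, a chromatin protein of fetal stem cells (-3.08), fell by larger log2 values than Igf2bp3. Several of these are also made by connective tissue and endothelium, whose markers fell between the same ages, and that part was not tested.

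Apart from Y-linked genes, the deepest falls among the genes named by size were in mast cell genes. Mast cells store proteases, histamine and heparin in granules and release them in allergy. Of 16 tested mast cell and basophil markers, 15 fell and none rose (median log2 fold change -5.58). Tpsb2 (chr17:25366305-25369098), mast cell tryptase, was at 1817, 899.6 and 1492 CPM at 2 days and 0.233, 0.0544 and 0.432 CPM at 14 days (log2 fold change -12.49 with SE 0.49, adjusted p = 1.29e-08). Mcpt4 (chr14:56059629-56062313), a connective tissue mast cell chymase, was at 1244, 603 and 1226 CPM and 0, 0.109 and 0.243 CPM (log2 fold change -13.02 with SE 0.53, adjusted p = 1.65e-08). Cma1 (chr14:55941451-55944675), another chymase, was at 993, 547 and 986 CPM and 0.379, 0.408 and 0.108 CPM (log2 fold change -11.46 with SE 0.42, adjusted p = 9.82e-09). Cpa3, mast cell carboxypeptidase, was at 773, 481 and 824 CPM and 0.467, 1.03 and 0.755 CPM (log2 fold change -9.83 with SE 0.37, adjusted p = 9.82e-09). No library of 14 days came near those of 2 days in any of the 4, and replicate 2 was the lowest at 2 days. Without replicate 3 of 14 days the log2 fold change was -13.24 for Tpsb2 and -14.06 for Mcpt4.

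Tpsab1, a further tryptase, and Mrgprb1, a receptor by which peptides trigger mast cells, had 6129 and 4264 counts at 2 days and 0 at 14 days. Against a floor of 3 counts over the age, these were at least 2007-fold and at least 1431-fold lower. Fcer1a, the chain of the IgE receptor shared by mast cells and basophils, had a log2 fold change of -6.12 (adjusted p = 7.11e-07). Outside the list, Slc6a4, a serotonin transporter, had -9.13 (adjusted p = 2.31e-07) and Cyp11a1, the enzyme that starts steroid synthesis, had -6.58 (adjusted p = 2.03e-07). Hdc, which makes histamine in mast cells and also in neutrophils, was the sole member not called, at 1307, 1235 and 1554 CPM and 1070.2, 993 and 989 CPM (log2 fold change -0.42, adjusted p = 0.0525), and was called without replicate 2 of 2 days (-0.49, adjusted p = 0.0169). At 7 days Mcpt4 was at 18.2, 26 and 19.5 CPM and Tpsb2 at 16.7, 23.7 and 18.4 CPM, so most of this fall had occurred by then.

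**Figure D5:**
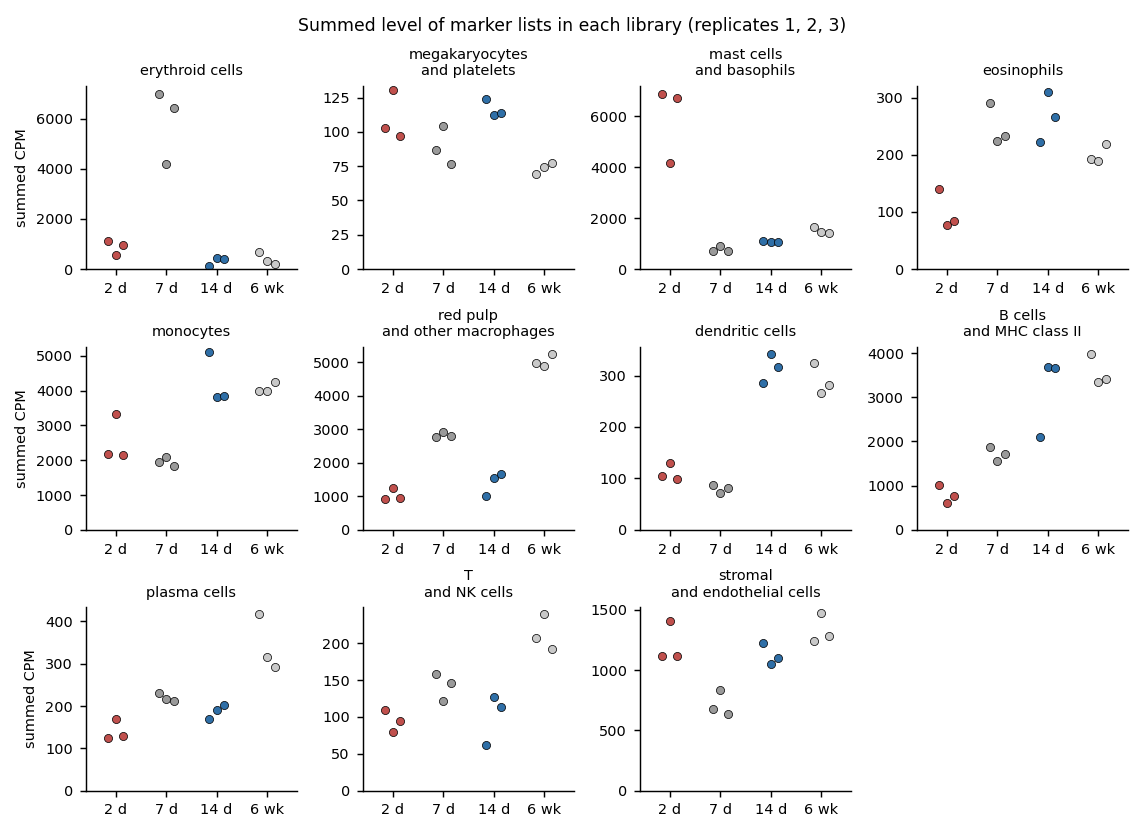
Summed level in CPM (y axis, from 0) of each list of markers of other cell types in every library at 2 days, 7 days, 14 days and 6 weeks (x axis). The mast cell sum was 4167 to 6898 CPM at 2 days and 1047 to 1112 CPM at 14 days, where nearly all of it was Hdc, the erythroid sum was lower at 14 days, and the sums for class II and B cell, dendritic cell and monocyte markers were higher, each without overlap between the libraries of both ages.

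Red cell genes fell too. Of 21 tested erythroid markers, 13 fell and none rose (median log2 fold change -2.50), and their summed level was 1115, 551 and 971 CPM at 2 days, 6978, 4206 and 6429 CPM at 7 days and 137, 431 and 382 CPM at 14 days. Klf1, the erythroid transcription factor, had a log2 fold change of -3.66 (SE 0.61, adjusted p = 0.000957), and Gata1, which acts in erythroid cells, megakaryocytes and mast cells, had -2.88 (adjusted p = 0.000887). The globin genes were not called: Hba-a1 was at 167, 84.8 and 159.6 CPM and 13.9, 62.2 and 63.2 CPM (log2 fold change -1.56, adjusted p = 0.0547), with replicate 1 of 14 days far below its partners and with reads shared among globin copies. Hba-a1 was called without replicate 2 of 2 days (-1.81, adjusted p = 0.0285).

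Megakaryocyte and platelet markers were 7 lower and 2 higher of 11 (median log2 fold change -0.96). These were 63.6% and 18.2% of the list, against 12.3% and 12.8% of all tested genes. Pf4, platelet factor 4, fell from 8.58, 11.5 and 8.71 CPM to 1.87, 0.653 and 0.62 CPM (log2 fold change -3.20 with SE 0.40, adjusted p = 0.000121, or -3.90 without replicate 1 of 14 days). Members called lower numbered 4 without replicate 3 of 14 days, and members called higher numbered 1 without replicate 1 or 3 of either age. Of 13 stromal and endothelial markers, 11 fell and none rose (median log2 fold change -2.72). Col3a1, a fibrillar collagen chain, was at 20.6, 4.21 and 24.7 CPM at 2 days and 0.7, 0.435 and 1.08 CPM at 14 days (log2 fold change -4.47 with SE 0.60, adjusted p = 0.000198). Cxcl12, the chemokine of marrow stroma, had a log2 fold change of -5.18 (adjusted p = 6.96e-05, and -5.77 without replicate 3 of 14 days). Vim, vimentin, which leukocytes also make, carried most of the summed level and did not pass the test (log2 fold change -0.04, adjusted p = 0.903).

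In the opposite direction, 9 of 13 monocyte markers rose and 1 fell (median log2 fold change 1.03), with a summed level of 2173, 3338 and 2147 CPM at 2 days and 5100.4, 3807 and 3858 CPM at 14 days. Ace, angiotensin-converting enzyme (chr11:105967945-105989964), which marks nonclassical monocytes in the mouse, was at 19.3, 10.9 and 10.2 CPM at 2 days and 315, 292 and 257 CPM at 14 days, 21.3-fold higher by means (log2 fold change 4.42 with SE 0.25, adjusted p = 2.94e-07). Cx3cr1, the fractalkine receptor of the same cells, rose from 9.71, 9.51 and 8.03 CPM to 43.8, 47.9 and 43.9 CPM (log2 fold change 2.31 with SE 0.17, adjusted p = 2.01e-06), and Cd300e and Treml4 rose with log2 fold changes of 2.21 and 1.54. The single fall was F13a1, a coagulation factor subunit of classical monocytes, from 59.1, 64.6 and 50.9 CPM to 10.2, 6.69 and 7.85 CPM (log2 fold change -2.82 with SE 0.23, adjusted p = 5.19e-06). Ly6c2, the marker of classical monocytes, was not called (log2 fold change -0.20, adjusted p = 0.394), while Ccr2, a chemokine receptor of the same cells, was among the 9 rises. Without replicate 1 of 2 days, 2 members were called lower.

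MHC class II genes, used by B cells, dendritic cells and macrophages to present antigen to CD4 T cells, were among the largest rises in abundant genes. H2-Eb1 was at 60.3, 27.3 and 44.3 CPM at 2 days and 307, 496 and 458 CPM at 14 days (log2 fold change 3.26 with SE 0.28, adjusted p = 7.41e-06). H2-Ab1 was at 88.8, 41.4 and 66 CPM and 391, 632 and 574 CPM (log2 fold change 3.02 with SE 0.27, adjusted p = 9.55e-06), and H2-Aa had a log2 fold change of 3.02. Ciita, the regulator that switches class II genes on, had 2.91 (adjusted p = 2.8e-05). Every library of 14 days exceeded those of 2 days in these genes, and replicate 1 was the lowest at 14 days.

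Cd79a, a signalling chain of the B cell receptor and a member of the same list, did not pass the test (log2 fold change 0.12, adjusted p = 0.819). Of the list's 15 genes 8 rose and none fell (median log2 fold change 0.88), and its summed level was 1008, 611 and 777 CPM at 2 days and 2108, 3686 and 3668 CPM at 14 days. Cr2, complement receptor 2 of mature B cells and follicular dendritic cells, rose from 2.04, 0.922 and 1.67 CPM to 8.67, 20.4 and 22.6 CPM (log2 fold change 3.46 with SE 0.34, adjusted p = 1.99e-05). Immunoglobulin segments were higher in 44 of 158 tested and lower in none. Dendritic cell markers were 9 higher and 1 lower of 12 (median log2 fold change 2.07), with a summed level of 106, 130.4 and 99.5 CPM at 2 days and 286, 343 and 317 CPM at 14 days. Zbtb46, the transcription factor of conventional dendritic cells, had a log2 fold change of 2.77 (SE 0.36, adjusted p = 0.000145). Itgax, the integrin CD11c, had 1.80 (SE 0.28, adjusted p = 0.00055). The part of dendritic cells in the class II rise was not tested.

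Macrophage markers rose in 9 of 18 and fell in none (median log2 fold change 0.76). Vcam1, an adhesion molecule of red pulp macrophages, rose from 56, 56 and 50.4 CPM to 61.5, 209.6 and 237 CPM (log2 fold change 1.65 with SE 0.35, adjusted p = 0.00427), and C6, a complement component that such macrophages make in the mouse, had a log2 fold change of 5.29 (adjusted p = 4.28e-05). The complement gene C1qa, a general macrophage marker, was at 71.1, 64.2 and 69.4 CPM and 26.2, 76.9 and 91.1 CPM and was not called (adjusted p = 0.89). T and NK cell markers were 9 higher and 2 lower of 18 (median log2 fold change 0.97), while their summed level was 110.1, 79.4 and 94.8 CPM at 2 days and 62.7, 127 and 114 CPM at 14 days, with overlap. Trac, the constant segment of the T cell receptor alpha chain, had 8 counts at 2 days and 277 at 14 days (log2 fold change 5.01, adjusted p = 0.000234, and 6.27 without replicate 1 of 2 days). T and NK cell markers were thus 50% higher and 11.1% lower, against 12.8% and 12.3% of all tested genes. Members called lower were 4 without replicate 2 of 2 days, and 1 without its replicate 3 or without replicate 3 of 14 days.

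Eosinophil markers rose in 6 of 10 and fell in none (median log2 fold change 1.64). Ccr3, the eotaxin receptor, was at 1.2, 1.65 and 1.26 CPM at 2 days and 9.83, 31.4 and 28.1 CPM at 14 days (log2 fold change 4.09 with SE 0.37, adjusted p = 9.78e-06), whereas the granule gene Epx, eosinophil peroxidase, was at 16.4, 0.626 and 5.34 CPM and 10.1, 11.6 and 16.5 CPM and was not called (log2 fold change 0.76 with SE 0.68, adjusted p = 0.458). Epx was called without replicate 1 of 2 days (2.08, adjusted p = 0.0266). Plasma cell markers rose in 3 of 7 and fell in none. Other large rises by fold were Adamdec1, a metalloprotease of mature macrophages, from 0.639, 0.494 and 0.356 CPM to 13.5, 42 and 21 CPM (log2 fold change 5.67 with SE 0.43, adjusted p = 2.27e-06), and S1pr5, a sphingosine 1-phosphate receptor that NK cells and nonclassical monocytes use to leave tissue, from 1.79, 1.15 and 1.07 CPM to 23.7, 23 and 21.6 CPM (log2 fold change 4.08 with SE 0.20, adjusted p = 1.07e-07). Hpgd, which degrades prostaglandins, rose from 4.52, 7.28 and 3.18 CPM to 33.5, 55.2 and 45.3 CPM (log2 fold change 3.17 with SE 0.26, adjusted p = 4.66e-06). Dtx1, a Notch pathway ligase, Dnase1l3, a secreted nuclease of macrophages and dendritic cells, and Cyp4f16, a cytochrome of fatty acid oxidation, had log2 fold changes of 3.38, 3.31 and 3.28.

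Among metabolic lists, oxidative phosphorylation had 2 of 25 genes lower and none higher (median log2 fold change -0.17), and 6 lower without replicate 2 of 2 days or 1 without replicate 3 of 14 days. Glycolysis had 3 of 20 higher (15%, near the 12.8% of all tested genes) and none lower (-0.01), or 1 lower without replicate 1 of 14 days. The 3 were Hk2 and Hk3, hexokinases, and Pfkl, a phosphofructokinase subunit. The Pfkl call was lost without replicate 3 of either age. Cytosolic ribosomal proteins had 1 of 27 lower (-0.11), against 3 without replicate 2 of 2 days and 0 without its replicate 3 or any replicate of 14 days. Cholesterol synthesis had 1 higher and 2 lower of 21 (-0.12), with 3 higher without replicate 1 and 4 lower without replicate 2 of 2 days, and with no gene higher without replicate 3 of 2 days or replicate 2 or 3 of 14 days. With any of these 3 or replicate 1 of 14 days left out, 1 was lower. With all libraries, shares lower were 8% for oxidative phosphorylation, 3.7% for ribosomal proteins and 9.52% for cholesterol synthesis. Each was under the 12.3% of all tested genes, and the 4.76% higher in cholesterol synthesis was under the 12.8%. Lipid uptake and fatty acid genes moved in both directions, 4 higher and 6 lower of 23 (-0.04). These were 17.4% and 26.1% of the list, against 12.8% and 12.3% of all tested genes. Cd36, a scavenger receptor for fatty acids, rose from 12.3, 10.9 and 10.4 CPM to 52.9, 43.9 and 36.9 CPM (log2 fold change 1.99 with SE 0.14, adjusted p = 1.54e-06). Fabp4, a fatty acid carrier, had a log2 fold change of 3.04 (adjusted p = 5.37e-05). Plin2, the lipid droplet coat protein, fell by 0.88 on that scale (adjusted p = 0.0237), a call lost without replicate 2 or 3 of 14 days or replicate 2 of 2 days.

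The unfolded protein response had 6 of 20 genes higher and none lower (median log2 fold change 0.31), with Hspa5, the chaperone BiP, at 334 ± 56.6 CPM and 495 ± 122 CPM (log2 fold change 0.57 with SE 0.17, adjusted p = 0.0277). The share higher was 30%, against 12.8% of all tested genes. Neither the 6 libraries alone nor the test against 1.5-fold called any of the 20. The Hspa5 call was lost without replicate 1 of either age or replicate 3 of 2 days, and the list had 3 higher without replicate 3 of 14 days and 1 lower without its replicate 1. Of 18 heat-shock response genes 2 were higher and 4 lower (-0.45), with 4 higher without replicate 2 of 2 days, 1 higher without replicate 1 of 14 days, and 2 lower without replicate 2 or 3 of 14 days or replicate 1 of 2 days. With all libraries, the shares were 11.1% higher, near the 12.8% of all tested genes, and 22.2% lower, against 12.3%. The 6 libraries alone gave 1 higher and 1 lower, and the test against 1.5-fold gave 0 and 0. The falls were Hsph1 (-1.55) and Hsp90ab1 (-0.50), chaperones of the cytosol, and Hspd1 (-0.87) and Hspe1 (-0.63), which form the mitochondrial chaperonin. The rises were the co-chaperone Bag3 (0.76) and the transcription factor Hsf1 (0.70). Of these 6 calls, those of Hspd1 and Hsf1 held whichever single library was left out, and each of the others was lost without some library. Without replicate 1 of 14 days the list had 3 members lower. Hspa1a, an inducible heat-shock protein, was at 9.45, 24.3 and 9.31 CPM at 2 days and 19.1, 10.9 and 16.2 CPM at 14 days, with overlap (log2 fold change 0.11, adjusted p = 0.858, and 0.72 with 0.0472 without replicate 2 of 2 days), and at 13373, 10674 and 11467 CPM at 7 days. The comparison of 2 with 14 days alone therefore does not show the level between them for this gene.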

How the data were processed

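Polyadenylated RNA of Ly6G+ spleen cells was extracted with Trizol and sequenced after random-primed cDNA synthesis, per the labels' protocols, which do not say whether strand was kept. The authors deposited gene counts, all whole numbers, for 12 libraries (4 ages, 3 libraries each). These may be rounded estimates, since RSEM 1.2.3 is named beside DESeq2 and mouse build mm10, without roles, per the submitters' processing notes. Reads of paralogs, overlapping and antisense genes may therefore be divided uncertainly. Of 38887 gene identifiers, 37570 were given a symbol from GENCODE M21 (GRCm38).

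Genes were kept by edgeR 4.0.16 (filterByExpr, minimum count 10; R 4.3.3) and fitted by its quasi-likelihood test with TMM factors over all 12 libraries, age being the only term (8 residual degrees of freedom). The contrast was 14 days minus 2 days, with Benjamini-Hochberg adjustment over the 15494 tested genes and a threshold of 0.05. Standard errors were obtained from the fold change on the log2 scale and the square root of F. CPM values are means and SDs of 3 libraries where written with ±. Replicates of an age differed by far more than sampling noise, so none was counted as a duplicate. Scripts were tested on simulated data.

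Alternatives were DESeq2 1.42.0, limma-voom (limma 3.58.1), RLE size factors or library totals in edgeR, no filter, a minimum count of 50, a test against 1.5-fold, the 6 libraries alone, a replicate block, and leaving out each library or replicate 2 of 2 days with replicate 1 of 14 days. The comparison, the 32 gene lists (2 of 630 entries unmatched) and the tests were chosen with earlier results of these data known, and lists were given no set test. Genes were named as the 10 largest rises and falls among called genes of at least 20 CPM without overlap, a set of 30 (not all reported here), and the 2 members of smallest p per list and direction; the 10 largest with a mean of at least 200 CPM, and further list members, were added after their values were seen. A fold against an age without counts is a bound from a floor of 3 counts over that age, and covers counting error only. The promoter table was RefSeq GRCm38.p6.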

Additional observations from a re-analysis of the deposited data

How the results depend on the processing

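The number of genes called at 14 against 2 days, 3882 (1978 higher, 1904 lower), stayed within 1.5 times under DESeq2 (4582), limma-voom (3833), RLE size factors (3922), library totals (3668), no filter (3742) and a minimum count of 50 (3353). It was 1692 (871 higher, 821 lower) when tested against 1.5-fold, a stricter question, and 1952 (1045 higher, 907 lower) from the 6 libraries alone, which leaves fewer samples to estimate the spread. Leaving out single libraries gave 2678 to 5833 calls (1442 to 3047 higher, 1236 to 2786 lower), the lowest without replicate 3 and the highest without replicate 2 of 2 days. Leaving out the latter with replicate 1 of 14 days gave 6249 (3283 higher, 2966 lower), and the cause was not tested. No gene called in the fit reported was called in the opposite direction under any of these settings. Replicate numbers are shared between the ages, but same-numbered libraries did not deviate together from their age's mean over genes (correlations -0.25, -0.14 and 0.01 for numbers 1, 2 and 3). No library correlated best with its own number. With 3 libraries per age, these values cannot exclude that same-numbered libraries were paired. With the replicate number as a block, 3347 genes were called (1742 higher, 1605 lower). Of 170 called genes followed one by one, 123 kept their call under every setting, and 21 of those not called gained one under some. Tnf was not called, and its log2 fold change of 0.14 became -0.43 without replicate 2 of 2 days and replicate 1 of 14 days, with a range of -0.27 to 0.35 when single libraries were left out. Depth was even between the libraries. For genes such as Lin28b, with 5 counts over the 14-day libraries, the fold change depends on a few counts.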

Other observations

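Y-linked genes had counts in every library of 2 days and, for 3 of 4, none at 14 days. Kdm5d, a Y-linked histone demethylase, had 952 counts over the 3 libraries of 2 days and 1 at 14 days. Ddx3y, a Y-linked RNA helicase, was at least 1238-fold lower at 14 days, and Eif2s3y, a Y-linked translation factor, at least 1546-fold lower, each against the floor of 3 counts. Xist, the noncoding RNA that silences an X chromosome in female cells, was at 183, 158 and 207 CPM at 2 days and at 322, 508 and 429.6 CPM at 14 days (adjusted p = 0.00591, edgeR). At 7 days Xist was at 309, 441 and 187 CPM and Ddx3y at 24.8, 32.8 and 50 CPM. Each library of 2 and 7 days thus held both Xist and Y-linked counts, while the number and sex of the mice in each were not given. Sex and age cannot be told apart in any other difference.

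Several genes named in the comparison had a course that the values at 2 and 14 days do not show. Ifnar2 was at 199.6, 204 and 196 CPM at 7 days, above every library of both ages, and Irf7 at 37.1, 43 and 34 CPM was below them. Ptgs2 was at 114, 84.5 and 171 CPM at 6 weeks, close to its values of 2 days, whereas Il1b at 1840.4, 1169 and 1871 CPM lay near those of 14 days. Atf3 was at 23.4, 31.1 and 25.7 CPM at 7 days and 38.1, 30.5 and 43.7 CPM at 6 weeks, so that 14 days was its highest age. Ace was at 40.3, 37.6 and 27.6 CPM at 7 days and 155, 182 and 160.4 CPM at 6 weeks and was also highest at 14 days. Ccr3 was at 94.4, 89.1 and 95.7 CPM at 6 weeks, above every younger library, and Adamdec1 at 38.4, 39.6 and 43.5 CPM. These ages were not compared by a test here, and the part of the high heat-shock levels of 7 days in these courses was not tested.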
